A study of Mus musculus with 9 samples.

Results

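Arc, Npas4, Nr4a1, Nr4a2, Nr4a3, Bdnf and Homer1 are genes whose transcription is known to follow neuronal activity. These 7 genes were taken by symbol from a table of 55487 mouse genes. RNA-seq measured them in retinal explants of wild-type C57BL/6J mice (postnatal day 28, P28), in 5 control and 4 treated libraries, where treatment was 2-deoxy-D-glucose (2-DG), a glucose analog that blocks glycolysis. Every retina was separated from sclera and retinal pigment epithelium and kept for 48 h in Neurobasal-A medium with B27 and N2 supplements and 5 mM glucose. The 2-DG group received 20 mM 2-DG in this medium and the control group none, as the titles and treatment labels state, although 1 protocol text that names 2-DG is attached to both groups. Explants of both groups then spent 1 h in Krebs' Ringer medium before RNA was extracted. An explant has lost its pigment epithelium, its blood supply and the axonal targets of its ganglion cells, which limits it as a model of the eye. Titles call the libraries biological replicates, 1 to 5 and 1 to 4, and do not say which animal or how many retinas each came from.

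Depolarisation lets calcium into a neuron through NMDA receptors and voltage-gated channels. Calcium-dependent kinases then act on the factors CREB, SRF and MEF2, which start immediate-early genes without new protein synthesis. The genes studied here belong to that programme. Arc is an effector at the synapse that takes part in the removal of AMPA receptors. Npas4 and the NR4A factors are transcription factors, Bdnf is a secreted neurotrophin, and Homer1 gives a long scaffold of the postsynaptic density and a short activity-induced form that competes with it.

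All 7 genes are protein-coding. On GRCm38 with GENCODE M21 annotation, Arc spans chr15:74669083-74672570 on the minus strand, Npas4 chr19:4984355-4990316 on the minus strand and Nr4a1 chr15:101254269-101274795 on the plus strand. Nr4a2 spans chr2:57106830-57124003 on the minus strand and Nr4a3 chr4:48045153-48086447 on the plus strand. Bdnf spans chr2:109674700-109727007 and Homer1 chr13:93299635-93405129, both on the plus strand.

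CREB binds the cyclic AMP response element (CRE) TGACGTCA and its core CGTCA, which reads TGACG on the other strand and is contained in the whole element. Both were searched on both strands in the 250 bases before each RefSeq transcript start (GRCm38.p6), where 13 windows matched 6 of the 7 genes. The sequences below show how close to the start the CRE cores lie in genes whose values in 2-DG lay above the control in some cases and below it in others. Capitals mark CRE cores. Only bases outside annotated exons are shown, which leaves 98 bases for Nr4a3 and none for Npas4, and the 7 Bdnf and Homer1 windows without a CRE core are left out.
Nr4a1, chr15:101266596-101266845, plus strand: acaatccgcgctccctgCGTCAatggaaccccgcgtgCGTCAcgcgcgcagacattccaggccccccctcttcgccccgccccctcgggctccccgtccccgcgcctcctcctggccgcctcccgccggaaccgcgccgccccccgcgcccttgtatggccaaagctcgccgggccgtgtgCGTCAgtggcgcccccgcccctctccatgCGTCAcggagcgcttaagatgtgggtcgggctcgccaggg
Nr4a2, chr2:57124004-57124253, minus strand: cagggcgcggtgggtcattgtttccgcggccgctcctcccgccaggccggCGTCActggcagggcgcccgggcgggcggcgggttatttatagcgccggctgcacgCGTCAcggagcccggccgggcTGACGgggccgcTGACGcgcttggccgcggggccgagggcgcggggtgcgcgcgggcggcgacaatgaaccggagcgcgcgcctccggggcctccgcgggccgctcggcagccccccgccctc
Nr4a3, chr4:48045055-48045152, plus strand: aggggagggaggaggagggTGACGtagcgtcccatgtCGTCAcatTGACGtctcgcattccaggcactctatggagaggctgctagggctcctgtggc
Homer1, chr13:93303507-93303756, plus strand: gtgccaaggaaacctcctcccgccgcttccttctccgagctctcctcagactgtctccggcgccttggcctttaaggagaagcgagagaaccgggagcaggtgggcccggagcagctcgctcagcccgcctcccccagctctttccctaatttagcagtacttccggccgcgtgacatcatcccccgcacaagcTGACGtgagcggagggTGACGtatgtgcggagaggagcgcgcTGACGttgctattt
Bdnf, chr2:109692186-109692435, plus strand: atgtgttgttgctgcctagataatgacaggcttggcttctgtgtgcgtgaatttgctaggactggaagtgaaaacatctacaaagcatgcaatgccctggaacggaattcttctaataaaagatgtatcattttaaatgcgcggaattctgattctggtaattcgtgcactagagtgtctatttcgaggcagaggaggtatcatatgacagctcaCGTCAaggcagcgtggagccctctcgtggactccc
Nr4a1, Nr4a2 and Nr4a3 each held 4 CRE cores in the whole window of 250 bases, Homer1 held 3, Npas4 held 2 and Bdnf held 1. Of all 32851 windows in the RefSeq table, 17.8% held at least 1 CRE core, 3.9% at least 2, 0.688% at least 3 and 0.137% at least 4. In Homer1 the CRE cores began 14 to 56 bases before the start of Homer1-207, a transcript with 0 to 9.83 counts per library. The more abundant Homer1-204, Homer1-205 and Homer1-202 start further on, at positions 93304495, 93305184 and 93308034, and the window before Homer1-202 held 0 CRE cores. In Bdnf the CRE core began 35 bases before the first exon of transcript Bdnf-209. In Nr4a1 they began 40 to 233 bases before the start of Nr4a1-201 and in Nr4a2 111 to 200 before that of Nr4a2-203. The distances were 147 to 231 bases in Nr4a3 and 169 to 179 in Npas4, from RefSeq starts that lie inside Nr4a3-201 and Npas4-201. The whole element occurred in 0 of the 13 windows and in 1.55% of all windows. The CArG box, the letters bound by SRF, also occurred in 0 of the 13 windows and in 1.47% of all windows. These matches describe letters and not occupied sites.

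The libraries held between 11317734 and 51802249 estimated counts. Levels are given as CPM, counts scaled to a common library size. A count of 3, the floor for a detected gene, equals 0.0579 CPM in the deepest and 0.265 CPM in the shallowest library, and the 7 genes lay above it in every library. Defining markers of rods, cones, bipolar cells, amacrine cells, ganglion cells and Müller glia were detected with at least 3 counts in all 9 libraries. Control replicates 2 and 5 and 2-DG replicate 4 stood apart, with a median r of log2 CPM with the other libraries of 0.891, 0.889 and 0.908, against 0.937 to 0.956 for the remaining 6. They also had the highest mitochondrial shares of the counts, 10.7%, 9.97% and 13.6%, against 3.40% to 6.68%, and the part of this in the results was not tested. For control replicate 2 the summed CPM over 10 rod markers was 45025 against 5523 to 16265 in the other control libraries, and over 8 cone markers 585 against 73.8 to 101. Fold changes of the 7 genes and the 4 lists are given with and without each of these 3 libraries. Summed CPM over 10 Müller glia markers lay between 1560 and 6734 in the control and between 630 and 2993 in the 2-DG libraries. Summed CPM over 10 bipolar cell markers lay between 180 and 2320 in the control and between 382 and 3248 in the 2-DG libraries. Amacrine markers summed to 276 to 1446 and 285 to 1413 CPM, ganglion cell markers to 336 to 1573 and 256 to 838, microglia markers to 33.4 to 80.4 and 33.6 to 95.1, and vessel and pericyte markers to 367 to 2099 and 522 to 2705, in the order control and 2-DG. Pigment epithelium markers, of which 4 of 10 reached 3 counts in every library, summed to 153 to 974 and 93.3 to 519 CPM. Lens markers summed to 18.5 CPM or less, with Lim2 at 0 throughout. In bulk tissue, fewer cells of a type and less RNA per cell cannot be told apart, and the part of cell composition in the results below was not tested.

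Gene counts were compared with edgeR's quasi-likelihood test over 21049 genes, with Benjamini-Hochberg adjustment over all of them. With all 9 libraries, 0 of the 7 genes and 0 of all genes had an adjusted p under 0.05, the threshold for a call (0.0% of genes tested). At an unadjusted p under 0.05 edgeR placed Arc and Nr4a1 among 1017 genes with lower values in 2-DG (4.83% of genes tested) and Nr4a2 among 509 genes with higher values (2.42%). DESeq2 on the same counts called 284 genes (1.35%), and limma-voom with sample quality weights called 1222 genes (5.81%). Of the 7 genes, Arc alone was called by DESeq2, and likewise by limma-voom. Without control replicate 2 edgeR called 16 of 20632 genes (0.0775%), without 2-DG replicate 4 it called 2 and without control replicate 5 it called 0, and 0 of the 7 genes were among them. Without control replicate 5 the log2 fold changes were -2.69 for Arc, -0.11 for Npas4, -0.70 for Nr4a1, 1.205 for Nr4a2, -0.25 for Nr4a3, -0.52 for Bdnf and 0.23 for Homer1. Without 2-DG replicate 4 they were -3.61 for Arc, 0.47 for Npas4, -0.76 for Nr4a1, 1.15 for Nr4a2, -0.49 for Nr4a3, -0.55 for Bdnf and 0.51 for Homer1. Only Npas4 changed its sign in these fits.

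**Figure D1:**
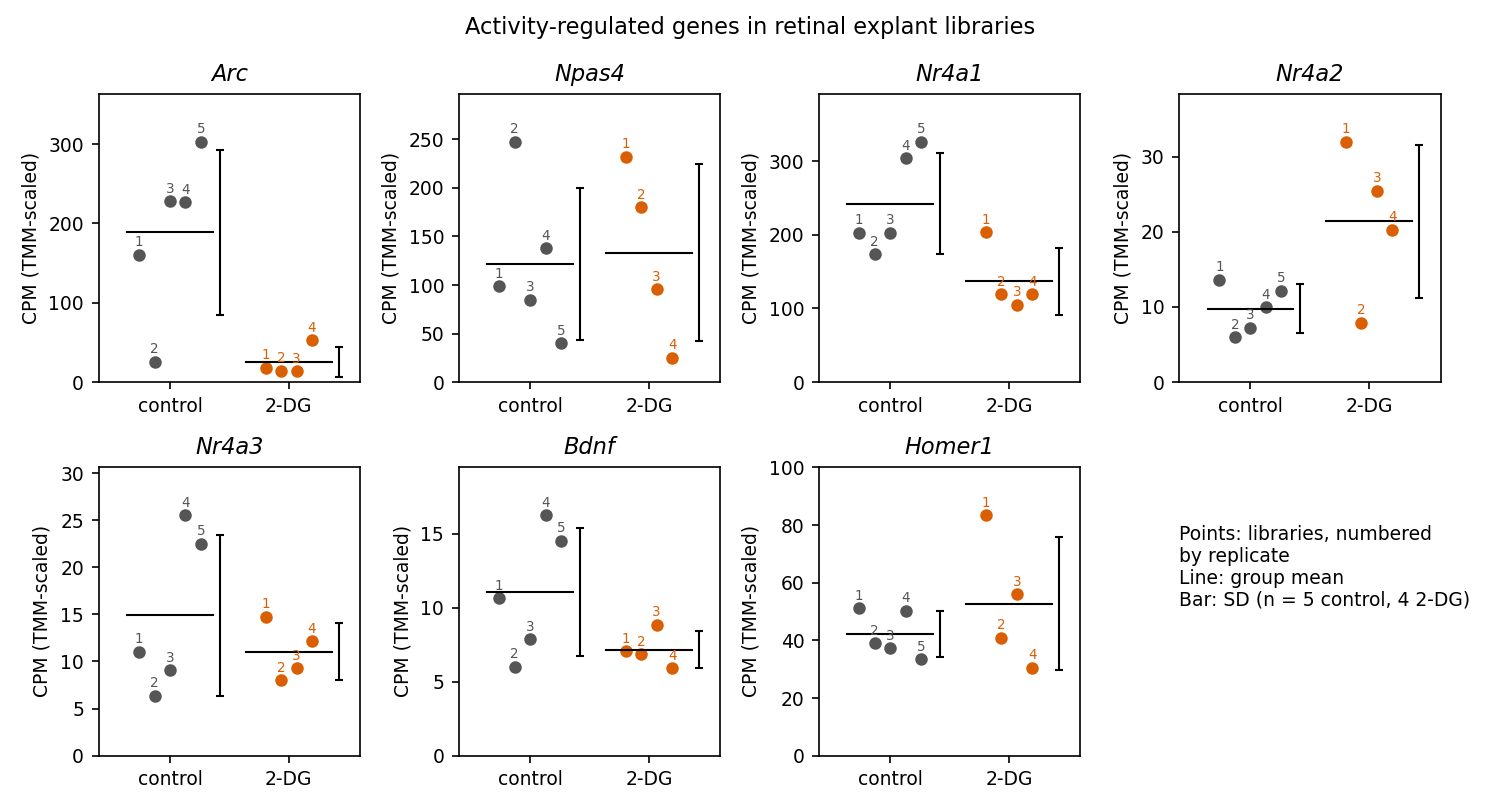
CPM on the TMM-scaled library size of the 7 genes (vertical axes, linear, from 0) in the 5 control (grey) and 4 2-DG (orange) libraries, numbered by replicate, with group mean and SD. Arc lay at 53.3 CPM or less in the 4 2-DG libraries and at 161 CPM or more in 4 of the 5 control libraries, and in each panel the ranges of the groups overlap.

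Arc had the largest difference of the 7 genes, with lower values in 2-DG. Its CPM was 161, 25.8, 229, 226 and 303 in control replicates 1 to 5. It was 18.1, 14.5, 13.8 and 53.3 in 2-DG replicates 1 to 4. Control replicate 2 was the only control library within the range of the 2-DG libraries, and the other 4 lay above all of them. The group means were 189 ± 104 CPM (SD, n = 5) and 24.9 ± 19.0 CPM (SD, n = 4), or 7.58-fold lower in 2-DG. The fitted log2 fold change was -2.92 ± 0.68 (SE), with an edgeR p of 0.00141 that became 0.514 after adjustment. Of the 21049 genes, 0.366% had a lower fold change than Arc, and Arc stood at place 57 by p. Leaving out control replicate 2, the only control in the 2-DG range, by construction leaves groups that do not overlap. The control mean was then 230 ± 58.3 CPM (SD, n = 4), and the log2 fold change was -3.20 with an edgeR adjusted p of 0.0620. With all libraries, 617 of 21049 genes had groups that did not overlap (2.93%), and 0 of the 7 genes were among them.

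Leaving out each library in turn gave log2 fold changes of Arc between -3.61 and -2.69, with an unadjusted edgeR p under 0.05 in 9 of 9 fits. DESeq2 gave a log2 fold change of -2.91 with an adjusted p of 0.00218, and limma-voom with quality weights gave -3.58 with an adjusted p of 0.00464. Whether Arc passes the threshold thus depended on the test, while its direction was the same in all 20 alternatives. Both Arc transcripts, which encode 396 codons each and are nearly identical (3055 and 3054 bases), so that the division of reads between them is uncertain, had lower values in 2-DG. Arc-201 had a log2 fold change of -2.77 (edgeR p of 0.00282) and Arc-202 of -3.13 (edgeR p of 0.0292), and Arc-202 was at 0 counts in 2-DG replicate 1. Of 62900 transcripts tested, 1437 had lower values at an unadjusted p under 0.05 (2.28%). The adjusted p was 0.9996 for the transcripts of all 7 genes that were tested.

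Npas4, a neuron-specific transcription factor induced by calcium entry, did not follow Arc. Its CPM was 98.5, 248, 85.1, 138 and 40.4 in control replicates 1 to 5 and 232, 180, 95.7 and 25.3 in 2-DG replicates 1 to 4. The highest value was in control replicate 2, where Arc was lowest among controls, and the lowest was in 2-DG replicate 4. The spread inside each group, 6.13-fold among controls and 9.18-fold among 2-DG libraries, exceeded the 1.09-fold difference of the means, 122 ± 78.4 CPM (SD, n = 5) and 133 ± 91.4 CPM (SD, n = 4). The log2 fold change was 0.13 ± 0.61 (SE), with an approximate 95% interval from -1.07 to 1.33 and an edgeR adjusted p of 0.969. Its sign turned without 2-DG replicate 1 (-0.27), 2-DG replicate 2 (-0.046) or control replicate 5 (-0.11), and without control replicate 2 it was 0.56. Over all 20 alternatives it lay between -0.33 and 0.81, the latter under limma-voom with quality weights (adjusted p of 0.222), or 1.75-fold. Control replicate 5 and 2-DG replicate 4, the lowest library of each group for Npas4, were also the lowest of each group for the bipolar cell markers (180 and 382 CPM in sum). The same held for the amacrine cell markers (276 and 285 CPM). Control replicate 2, the highest for Npas4, had a bipolar sum of 843 CPM, against 1230 to 2320 CPM in control replicates 1, 3 and 4. The part of cell composition in the Npas4 values was not tested.

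The NR4A genes encode orphan nuclear receptors that act as immediate-early transcription factors. Nr4a1 is best known from activity and stress responses, and Nr4a2 also from the maintenance of dopaminergic neurons. The 3 genes did not differ in one direction.

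Nr4a1 had lower values in 2-DG. Its CPM was 203, 173, 203, 304 and 327 in control replicates 1 to 5, and 204, 119, 105 and 119 in 2-DG replicates 1 to 4. Replicates 2, 3 and 4 of 2-DG lay below every control library, while 2-DG replicate 1 lay within the control range. The means were 242 ± 68.4 CPM (SD, n = 5) and 137 ± 45.0 CPM (SD, n = 4), 1.77-fold lower in 2-DG. The log2 fold change was -0.82 ± 0.29 (SE), with an edgeR p of 0.0160 and an adjusted p of 0.602, so it did not pass the threshold. It lay between -1.07 and -0.70 with single libraries left out, and the unadjusted edgeR p was under 0.05 in 8 of those 9 fits and 0.0514 without 2-DG replicate 3. The value was -0.92 without control replicate 2 (edgeR p of 0.00877). The main transcript Nr4a1-201, with 225 ± 93.6 CPM (SD, n = 5) in control and 113 ± 42.6 CPM (SD, n = 4) in 2-DG libraries, had a log2 fold change of -0.99 (edgeR p of 0.0237).

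Nr4a2 had higher values in 2-DG in the gene table. Its CPM was 13.6, 6.01, 7.25, 9.93 and 12.2 in control replicates 1 to 5, and 32.0, 7.90, 25.5 and 20.3 in 2-DG replicates 1 to 4. Replicates 1, 3 and 4 of 2-DG exceeded every control library, and 2-DG replicate 2 lay among the controls. The means were 9.80 ± 3.20 CPM (SD, n = 5) and 21.4 ± 10.2 CPM (SD, n = 4), 2.18-fold higher in 2-DG. The log2 fold change was 1.12 ± 0.40 (SE), with an edgeR p of 0.0178 and an adjusted p of 0.604. With single libraries left out it lay between 0.87 and 1.40, with 0.99 without control replicate 2 (edgeR p of 0.0380). The unadjusted edgeR p was under 0.05 in 8 of those 9 fits and 0.0682 without 2-DG replicate 1. Under limma-voom with quality weights the log2 fold change was 0.77 (p of 0.163, adjusted p of 0.363).

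This difference of Nr4a2 depended on how its transcripts were combined. The transcript table sums to 358, 128, 119, 500 and 390 Nr4a2 counts in control and to 221, 285, 759 and 495 in 2-DG libraries. The gene table gives 354, 84.1, 95.4, 377 and 377 counts in control and 377, 254, 1374 and 709 in 2-DG libraries. The gene count was thus 0.657 to 0.989 times the sum of transcripts in control and 0.891 to 1.81 times in 2-DG libraries. For Arc, Npas4, Nr4a1, Nr4a3 and Bdnf this ratio stayed between 0.915 and 1.09, and for Homer1 between 0.875 and 1.18. With sums of transcript counts in place of gene counts, the log2 fold change of Nr4a2 was 0.27 (edgeR p of 0.356), and that of Arc remained at -2.92.

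The ratio moved with a short noncoding transcript of Nr4a2. Nr4a2-204, of 182 bases, had 1 to 6 counts in control and 4 to 20 counts in 2-DG libraries. It held 0.781% to 1.68% of the Nr4a2 transcript counts in control and 1.40% to 4.52% in 2-DG libraries, but 10.3% to 21.3% and 17.9% to 41.3% of the counts per kilobase. Gene counts rebuilt from the transcript table as counts per length, rescaled by the gene's mean length, came closer to the deposited gene counts than plain sums did. Over 11791 genes the median absolute log2 ratio was 0.0184 for rebuilt counts, with 150 bases taken off each length, and 0.0536 for plain sums. Rebuilt in this way, Nr4a2 gave 0.659 to 1.03 times the plain sum in control and 0.927 to 2.02 times in 2-DG libraries. With 0 bases taken off, the median absolute log2 ratio over genes was 0.0229, and Nr4a2 gave 0.789 to 1.01 times the plain sum in control and 0.948 to 1.32 times in 2-DG libraries. The coding transcripts of Nr4a2 had no common direction, with log2 fold changes of 0.99 for Nr4a2-201, 0.36 for Nr4a2-202 and -0.08 for Nr4a2-203 (edgeR p of 0.437, 0.513 and 0.881).

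**Figure D2:**
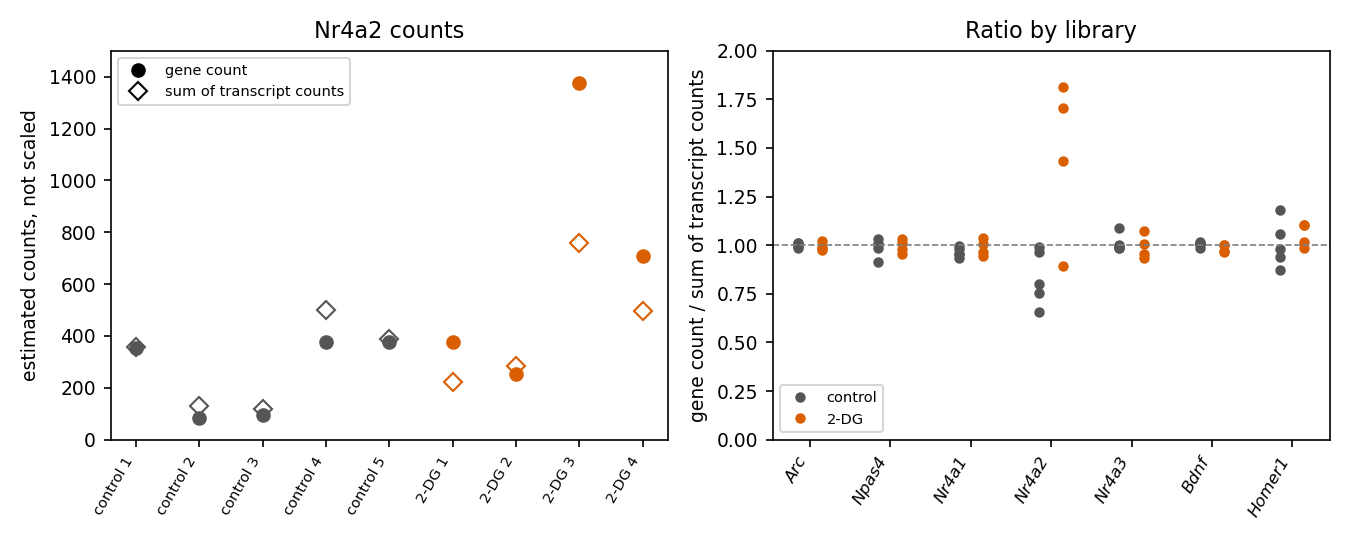
Left, Nr4a2 counts per library (vertical axis, estimated counts not scaled for depth) as deposited per gene (filled) and as the sum of its transcripts (open). Right, the ratio of both counts for the 7 genes by library, control in grey and 2-DG in orange. Nr4a2 reaches a ratio of 1.81 in the 2-DG libraries, and the other 6 genes stay between 0.875 and 1.18.

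Nr4a3 showed no difference beyond its spread. Its CPM was 11.04, 6.37, 9.09, 25.5 and 22.5 in control replicates 1 to 5 and 14.8, 7.995, 9.30 and 12.2 in 2-DG replicates 1 to 4. The 2-DG libraries all lay inside the control range. The means were 14.9 ± 8.55 CPM (SD, n = 5) and 11.1 ± 3.02 CPM (SD, n = 4). The log2 fold change was -0.44 ± 0.43 (SE), with an approximate 95% interval from -1.28 to 0.40 and an edgeR adjusted p of 0.839. With single libraries left out it ranged from -0.63 without control replicate 2 (edgeR p of 0.131) to -0.18 without control replicate 4 (edgeR p of 0.682).

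Bdnf signals through the receptor kinase TrkB, the product of Ntrk2, and in the retina is known as a survival factor for ganglion cells. Its CPM was 10.7, 6.01, 7.86, 16.3 and 14.5 in control replicates 1 to 5, and 7.04, 6.84, 8.86 and 5.92 in 2-DG replicates 1 to 4. The 3 highest values were all in control libraries, but control replicates 2 and 3 lay among the 2-DG libraries. The means were 11.1 ± 4.33 CPM (SD, n = 5) and 7.17 ± 1.23 CPM (SD, n = 4), with a log2 fold change of -0.63 ± 0.34 (SE), an edgeR p of 0.0936 and an adjusted p of 0.739. Without control replicate 2 the log2 fold change was -0.79 (edgeR p of 0.0243, adjusted p of 0.427), and without control replicate 4 it was -0.47 (edgeR p of 0.216). Of 11 Bdnf transcripts, which share a coding exon and differ mainly in the exons before it, 10 were at 0 in at least 1 library and 5 could be tested. Bdnf-207, Bdnf-208 and Bdnf-210 share a start, and Bdnf-201 and Bdnf-202 encode 257 and 289 codons against 249 in the others. The most abundant, Bdnf-205, had 5.11 ± 3.99 CPM (SD, n = 5) in control and 2.85 ± 0.724 CPM (SD, n = 4) in 2-DG libraries (edgeR p of 0.414). Bdnf-209, the transcript behind the promoter sequence shown, had 1.38 ± 1.01 CPM (SD, n = 5) and 1.25 ± 1.09 CPM (SD, n = 4).

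Homer1 had a CPM of 51.2, 39.0, 37.3, 50.3 and 33.5 in control replicates 1 to 5 and 83.4, 40.9, 56.1 and 30.5 in 2-DG replicates 1 to 4. The 2 highest values and the lowest value were all in 2-DG libraries. The means were 42.3 ± 8.02 CPM (SD, n = 5) and 52.7 ± 23.0 CPM (SD, n = 4). The log2 fold change was 0.32 ± 0.29 (SE), with an approximate 95% interval from -0.25 to 0.89 and an edgeR adjusted p of 0.831. With single libraries left out it ranged from 0.017 to 0.51, with 0.29 without control replicate 2.

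The short forms of Homer1 keep the domain that binds partners and lack the coiled coil that joins the long forms. Homer1-204, the form known as Homer1a, encodes 186 codons, and Homer1-205, Homer1-206 and Homer1-207 encode 203, 233 and 193 codons that also end before the last exons of the long form. Homer1-202 and Homer1-203, with 370 and 366 codons, are the long forms that were measured. Homer1-204 had 18.2 ± 4.82 CPM (SD, n = 5) in control and 19.9 ± 9.20 CPM (SD, n = 4) in 2-DG libraries, and Homer1-205 had 8.81 ± 2.34 and 10.7 ± 4.18 CPM. The edgeR log2 fold changes were 0.12 ± 0.37 (SE) for Homer1-204 and 0.29 ± 0.37 (SE) for Homer1-205.

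Per kilobase, the short forms made up 62.1%, 79.6%, 55.6%, 66.7% and 70.9% of coding Homer1 counts in control replicates 1 to 5. They made up 68.1%, 62.0%, 63.0% and 71.8% in 2-DG replicates 1 to 4, all within the control range. The means were 67.0 ± 9.03% (SD, n = 5) and 66.2 ± 4.58% (SD, n = 4), a difference of -0.77 percentage points (exact two-sided permutation test, p of 0.881, where the smallest possible p is 0.00794). The difference turned positive without control replicate 2 (2.37 percentage points), control replicate 5 (0.205), 2-DG replicate 2 (0.635) or 2-DG replicate 3 (0.305). Of these, Homer1-204 alone made up 23.2 ± 3.76% and 20.9 ± 2.28% of coding counts per kilobase (exact permutation p of 0.302). The terminal segment of Homer1-204 extends into an intron of the long form, and in total RNA its reads cannot be told apart from unspliced RNA. Homer1-205, Homer1-206 and Homer1-207 also end within the span of the long forms, and whether unspliced RNA adds to their reads was not tested.

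**Figure D3:**
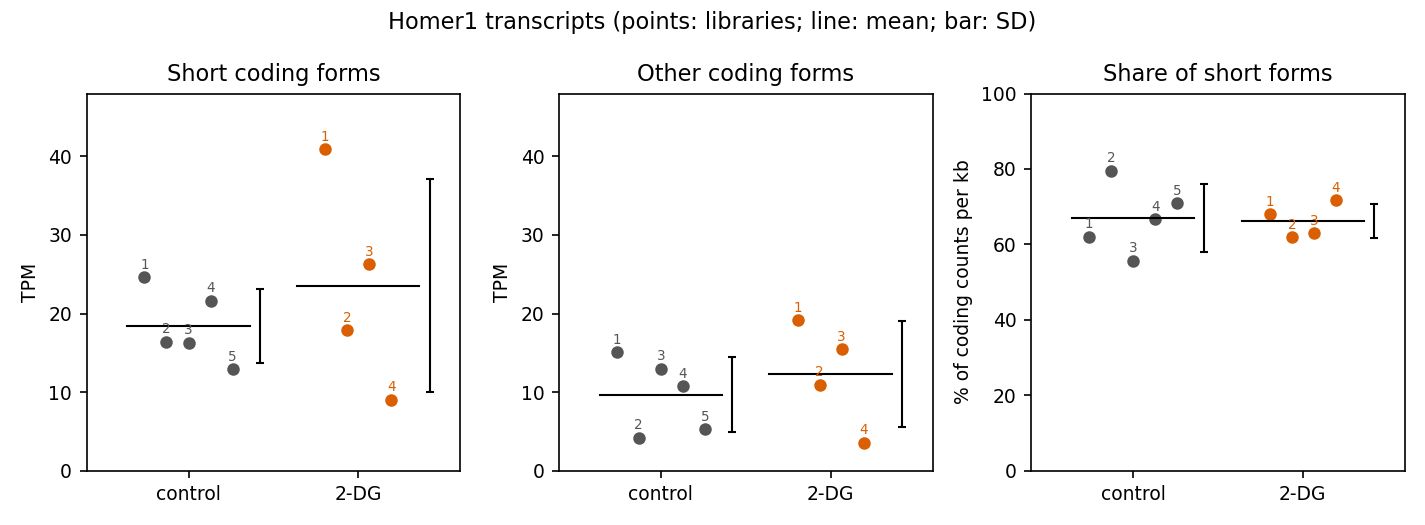
Homer1 short coding forms and other coding forms in TPM (vertical axes from 0), and the share of the short forms in percent of coding counts per kilobase, for 5 control (grey) and 4 2-DG (orange) libraries with mean and SD. The short forms reach 40.9 TPM in 2-DG replicate 1 and fall to 9.05 TPM in 2-DG replicate 4, while the share stays between 55.6% and 79.6%.

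On the TPM scale, which divides counts by transcript length and so allows levels of different genes to be compared, Nr4a1 was the most abundant in control explants with 202 ± 57.8 TPM (SD, n = 5). Arc followed with 130 ± 68.0 TPM and Npas4 with 81.1 ± 41.4 TPM, and these 3 overlapped with their neighbours in the order. For Npas4 the sum included Npas4-203, of 2453 bases, which is annotated for nonsense-mediated decay. Npas4-203 had mean CPM of 64.2 in control and 70.9 in 2-DG libraries. The protein-coding Npas4-201, of 3622 bases, had 56.1 and 49.9 CPM, so the place of Npas4 in this order rests in large part on Npas4-203. Homer1 stood at 28.04 ± 8.79 TPM, and Nr4a2 at 7.16 ± 1.87, Bdnf at 5.64 ± 2.13 and Nr4a3 at 5.62 ± 3.03 TPM overlapped with each other. In 2-DG explants the means were 113 ± 51.5 TPM for Nr4a1, 100.2 ± 73.7 for Npas4, 35.8 ± 20.1 for Homer1 and 14.4 ± 5.78 for Arc (SD, n = 4). Arc thus stood between Nr4a1 and Npas4 in control and below Homer1 in 2-DG explants, with the range of Arc (10.5 to 22.8 TPM) and that of Homer1 (12.6 to 60.1 TPM) overlapping.

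**Figure D4:**
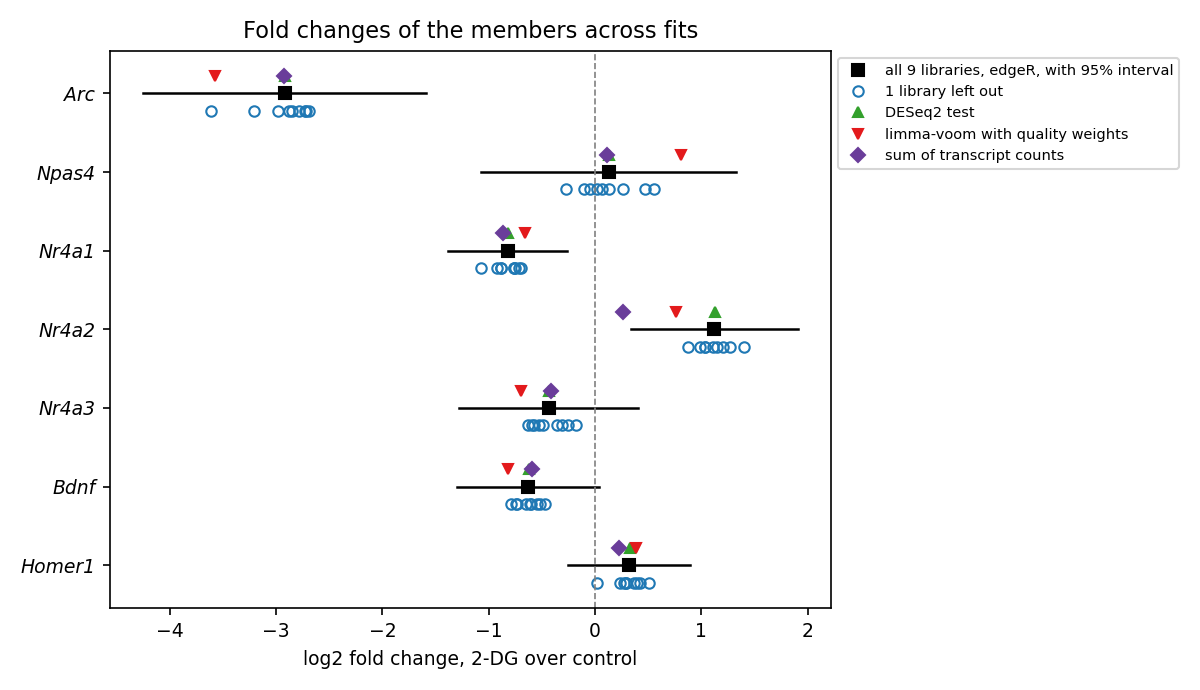
Log2 fold change of 2-DG over control (horizontal axis) for the 7 genes under edgeR with all 9 libraries (squares, with approximate 95% interval), with 1 library left out (open circles), with DESeq2, with limma-voom and with sums of transcript counts. Arc lies between -3.61 and -2.69 when single libraries are left out, Npas4 lies on both sides of 0, and Nr4a2 moves to 0.27 with sums of transcript counts.

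Across the 9 libraries, log2 CPM of Arc and Nr4a1 had a Pearson's r of 0.77, Nr4a1 and Nr4a3 of 0.72, and Bdnf and Nr4a3 of 0.79. Npas4 and Arc had an r of -0.46. These values describe 9 points that include the difference between the groups and share depth and composition. Among 16846 genes with a mean of at least 1 CPM, Gm10425, H2-M2 and Frat2 were most like Arc (r of 0.98, 0.97 and 0.97). Snx24 and the clock genes Dbp and Per3 were most like Npas4 (r of 0.96, 0.96 and 0.95). Nppc and Fos were among the 3 genes most like Nr4a1 (r of 0.93 and 0.91). For Nr4a2 these were Adgrg1, Fgd6 and Rfxap (r of 0.96, 0.95 and 0.93), and for Nr4a3 they were 1700125H20Rik, Ifi211 and Dusp6 (r of 0.94, 0.92 and 0.92). Lrrc75a, Bhlhe40 and Loxl1 were most like Bdnf (r of 0.95, 0.92 and 0.92), and B130021K23Rik, Iqcn and Cntnap3 most like Homer1 (r of 0.91, 0.89 and 0.89).

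Genes around these 7 were read in 4 lists. The first holds 12 immediate-early transcription factor genes, and their median log2 fold change was -1.11, against -0.01 for all genes tested. All 12 had lower values in 2-DG under edgeR with all libraries, as had 50.8% of all genes, and 0 of 12 were called. All 12 also had lower values without control replicate 2 (median -1.34), control replicate 5 (-0.73) or 2-DG replicate 4 (-1.17). Egr3 had 35.1 to 43.3 CPM in control libraries other than replicate 2, which had 6.16, and 4.36 to 12.4 CPM in 2-DG libraries (log2 fold change -2.11 ± 0.53, SE, edgeR adjusted p of 0.524). Fos, a partner in the AP-1 factor, had a log2 fold change of -1.06 ± 0.43 (SE) and Egr1, a zinc-finger factor, of -1.17 ± 0.48 (SE), with an edgeR adjusted p of 0.656 for both. Like Arc, Egr1 and Fos were lowest in replicate 2 among the controls, at 344 and 403 CPM. Egr3 was called by edgeR without control replicate 2 (adjusted p of 0.0449) and by DESeq2 (0.0143), and DESeq2 also called Egr2. With limma-voom Atf3, Egr2, Egr3 and Fosb were called. The shares called of all genes were 0.0775% for edgeR without control replicate 2, 1.35% for DESeq2 and 5.81% for limma-voom.

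The second list holds 26 other genes known to be induced by activity. Their median log2 fold change was -0.23, with 20 lower and 6 higher in 2-DG, and 0 were called. The median was -0.37 without control replicate 2, -0.30 without control replicate 5 and -0.25 without 2-DG replicate 4, with 21 lower and 5 higher, 19 and 7, and 16 and 10. Nptx2, a secreted pentraxin that gathers AMPA receptors, resembled Arc in its pattern. Its CPM was 194, 42.4, 218, 281 and 199.6 in control replicates 1 to 5 and 68.7, 51.8, 55.1 and 39.3 in 2-DG replicates 1 to 4, so that control replicate 2 alone lay among the 2-DG libraries. Its log2 fold change was -1.80 ± 0.45 (SE), with an edgeR adjusted p of 0.524 with all libraries and of 0.0340 without control replicate 2. DESeq2 called Nptx2 alone of this list, against 1.35% of all genes. Limma-voom called Btg2, Gadd45b, Maff and Nptx2, against 5.81% of all genes. The neuropeptide precursors Vgf and Scg2 had log2 fold changes of -0.20 ± 0.44 and 0.60 ± 0.69 (SE). Nrn1, Plk2 and the clock gene Per1 had -0.27 ± 0.91, -0.20 ± 0.42 and -0.37 ± 0.28 (SE).

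The third list holds 29 genes of the signalling that leads to these targets. Here 18 had higher and 11 lower values in 2-DG, with a median log2 fold change of 0.13, and 0 were called. Under upper-quartile scaling or total counts alone the split was 15 higher and 14 lower. It was 21 and 8 without control replicate 2, 16 and 13 without control replicate 5, and 19 and 10 without 2-DG replicate 4. The medians in these fits were 0.12, 0.031 and 0.19. Srf, the factor that binds the CArG box, had a log2 fold change of -0.82 ± 0.35 (SE, edgeR adjusted p of 0.680). Creb1, Crem and Crtc1, a factor that binds the cyclic AMP response element, its relative and a coactivator, had 0.34 ± 0.26, 0.13 ± 0.30 and 0.55 ± 0.40 (SE). Mef2d and the kinase gene Camk4 had 0.34 ± 0.28 and 0.71 ± 0.64 (SE).

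The fourth list holds 21 binding partners, receptors and paralogs, of which 14 had higher and 7 lower values, with a median log2 fold change of 0.14 and 0 called. The split was 14 higher and 7 lower without control replicate 2, 11 and 10 without control replicate 5, and 17 and 4 without 2-DG replicate 4. The medians in these fits were 0.11, 0.018 and 0.23. Ngfr, the p75 receptor that binds the precursor of Bdnf, had 15.1 to 183 CPM in control and 21.7 to 78.4 CPM in 2-DG libraries (log2 fold change -1.38 ± 0.61, SE, edgeR adjusted p of 0.689). Ntrk2, the TrkB receptor gene, had a log2 fold change of 0.09 ± 0.67 (SE). Arnt2, a partner of Npas4, had 0.25 ± 0.54 (SE), and Rxrg, a partner of Nr4a1 and Nr4a2, -0.02 ± 0.50 (SE). Homer2, Homer3 and Grm5, the paralogs and a receptor bound by Homer1, had 0.38 ± 0.59, 0.14 ± 0.25 and 0.43 ± 0.86 (SE). Dnm2, a dynamin that Arc binds in endocytosis, had 82.5 to 101 CPM in control and 103 to 148 CPM in 2-DG libraries without overlap, as had 2.93% of all genes. Its log2 fold change was 0.50 ± 0.18 (SE, edgeR adjusted p of 0.604). Limma-voom called it alone of the 21, against 5.81% of all genes, so neither value sets this list apart from all genes.

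**Figure D5:**
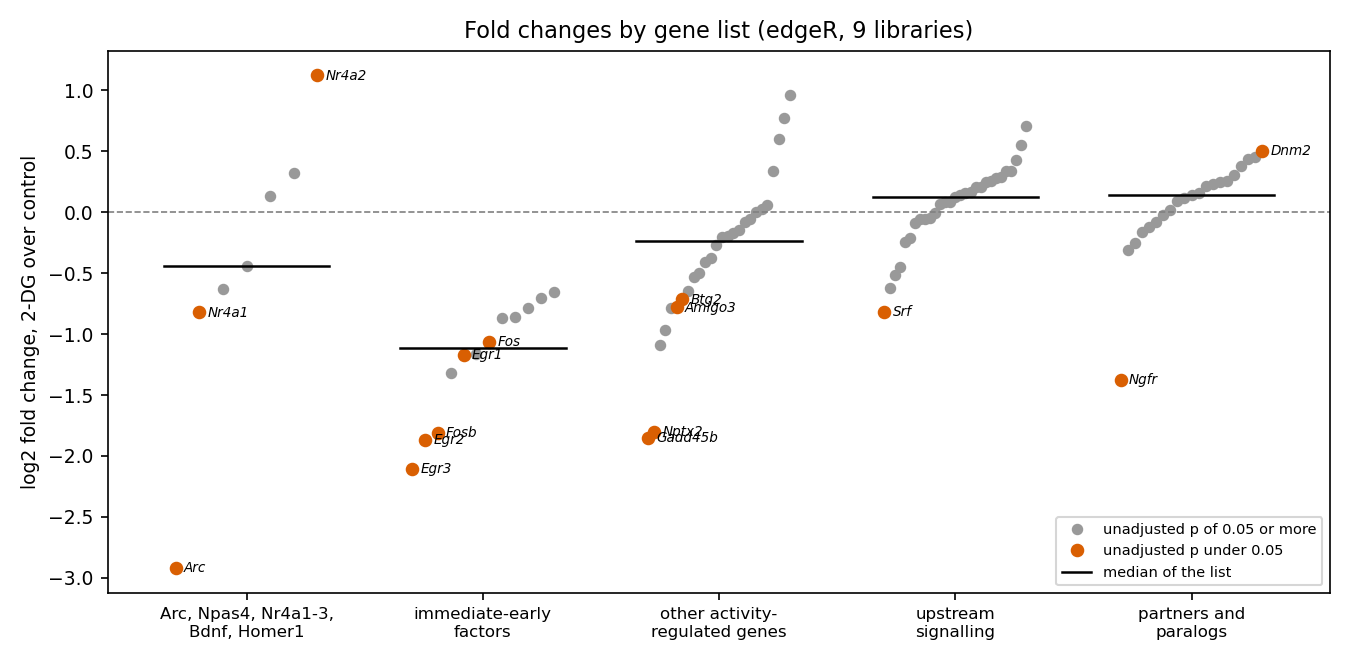
Log2 fold change of 2-DG over control (vertical axis, edgeR with 9 libraries) for the 7 genes and the 4 lists. Points are genes, orange where the unadjusted p was under 0.05, and lines are medians. The 12 immediate-early factors all lie below 0 with a median of -1.11, and the 7 genes spread from -2.92 for Arc to 1.12 for Nr4a2.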

How the data were processed

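Total RNA of retinal explants had been sequenced in 5 control and 4 2-DG libraries (SMARTer stranded kit, 4 ng of RNA, 13 PCR cycles, read pairs of 101 bases, 1 batch per the labels). The authors deposited estimated counts for each gene and each of 142699 transcripts, without scaling for depth. The submitters' processing notes name kallisto and GRCm38, and how transcripts were combined into genes and whether strand was used are not given in the sources used here. The authors also deposited scaled CPM values of 12568 genes, a normalised signal checked beside the CPM computed here, and a table of their own comparison (fold changes and p-values), which was not used. Columns were matched to samples by the library name in each sample's description.

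Estimated counts were rounded, which changed no library total by more than 0.00377%. edgeR 4.0.16 (filterByExpr, TMM, glmQLFit with legacy=TRUE, glmQLFTest, group as the only term) was run in R 4.3.3. A standard error is the absolute log2 fold change over the square root of F. DESeq2 1.42.0, limma 3.58.1, other scalings and filters, the replicate number as a block and each library left out were alternatives. edgeR's newer quasi-likelihood method and sums of transcript counts were added after the data were seen. TPM were computed from transcript counts and exon lengths and summed for each gene over transcripts with a coding region, whatever their annotated type. The scripts were tested on simulated data with a smaller dispersion than the 0.265 estimated here. Those tests do not measure how often each method calls falsely in these libraries.

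Members, lists and tests were chosen with earlier results of these data known. All 7 genes were named, as were 22 context genes, any list gene called, and the 3 genes most like each member by Pearson's r of log2 CPM (prior count 2), of which 1 is not reported here. Floors cover counting error only, since reads carried no molecular identifiers, and 95% intervals and p-values measure the spread between these libraries.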

Additional observations from a re-analysis of the deposited data

Results flagged for a closer look

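In 10 of 80 groups of libraries tested, 1 library lay far from the others of its group by Dixon's test at the 95% level. That level assumes normal values in independent groups. Here CPM were not log-transformed and the genes share libraries, so the count cannot be set against chance. Among the 7 genes, Arc was at 53.3 CPM in 2-DG replicate 4 against 13.8 to 18.1 in the other 2-DG libraries, and Nr4a1 was at 204 CPM in 2-DG replicate 1 against 105 to 119. Among the context genes, 2-DG replicate 1 was also high for Fos (884 CPM against 337 to 430). 2-DG replicate 4 was high for Homer3 (48.0 CPM against 23.6 to 27.4) and low for Scg2 (74.1 CPM against 507 to 584), and 2-DG replicate 3 was high for Rxrg (7.41 CPM against 2.29 to 2.89). Control replicate 2 was low for Egr3 (6.16 CPM against 35.1 to 43.3). Control replicate 2 was high in the summed CPM of the rod markers (45025 against 5523 to 16265) and of the cone markers (585 against 73.8 to 101). 2-DG replicate 3 was high in the summed CPM of the cone markers (811 against 89.3 to 132). The causes were not tested.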

How the results depend on the processing

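Arc kept its direction in all 20 alternatives and passed the threshold under DESeq2 (log2 fold change -2.91) and limma-voom (-3.58) only. Nr4a1, Nr4a2, Nr4a3, Bdnf and Homer1 kept their direction in all 20, and 0 of them were called. Nr4a3 ranged from -0.70 to -0.070 in these, the latter with the replicate number as a block. Genes called numbered 0 in edgeR, 284 in DESeq2, 1222 in limma-voom, 1 with edgeR's newer method and 0 to 16 with 1 library left out (16 without control replicate 2, 2 without 2-DG replicate 4). Transcripts called numbered 0 in edgeR and 1 with the newer method. Same-numbered libraries deviated together in 3 of 4 pairs (r of 0.45, -0.15, 0.10 and 0.21), and 1 of 4 2-DG libraries correlated best with the control of its own number, so the numbers, of which not every pair exceeded 0.1, were not taken as pairs. As a replicate block they left 0 genes called, moved the genes with lower values at an unadjusted edgeR p under 0.05 from 1017 to 669 and those with higher values from 509 to 682, and gave log2 fold changes of -0.33 for Npas4, -0.033 for Arnt2, -0.27 for Ntrk2, -0.042 for Homer2, -0.0056 for Grm5 and -0.12 for Homer1-204, and 0.21 percentage points for the short Homer1 share. These turned sign against the fit without the block, as did Rxrg (0.072), Homer3 (-0.16), Crem (-0.19), Vgf (0.061) and Nrn1 (0.27) under limma-voom and Rxrg (0.028) without a filter, none of which was called under any setting. With 1 library left out, log2 fold changes spanned 0 for Npas4 (-0.27 to 0.56), Rxrg (-0.56 to 0.35), Ntrk2 (-0.20 to 0.42), Homer3 (-0.14 to 0.26), Crem (-0.12 to 0.32), Vgf (-0.85 to 0.076), Nrn1 (-1.45 to 0.44) and Homer1-204 (-0.17 to 0.32), as did the difference in the short Homer1 share (-3.61 to 2.37 percentage points). The causes were not tested. The lowest counts in 1 library were 83.3 for Bdnf, 84.1 for Nr4a2 and 89.1 for Nr4a3. Genes at an unadjusted p under 0.05 numbered 1017 lower and 509 higher in edgeR, 3234 and 2240 in limma-voom, 1937 lower without a filter, 293 higher with total counts only, 321 higher with upper-quartile scaling, and 652 to 2006 lower and 269 to 715 higher with 1 library left out.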
